A study of Homo sapiens with 27 samples.

Results

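The response of ARNT-knockout clone A to hypoxia was measured by polyA RNA sequencing of 3 libraries of the clone kept at 1% oxygen and 3 libraries of the same clone kept at 20% oxygen. These 6 of the 27 libraries in the series were taken by their labels, and every gene of the count table entered, of which 13943 of 21487 passed a filter on low counts and were tested. All libraries came from Panc1, an established human pancreatic ductal adenocarcinoma line. Clone A is a single clone in which the ARNT gene was knocked out with CRISPR-Cas9, and both of its groups carried that knockout. It was set beside clone B, the other single knockout clone, and beside the parental control cells, each with 3 hypoxic and 3 normoxic libraries. Every group used here was kept for 48 hours in the same regular medium, DMEM with 10% FBS and 1% P/S. The other 9 libraries, from hypoxia in a tumor interstitial fluid medium (TIFM), entered the filter on low counts, the scaling and the estimate of the spread. None of the comparisons used them as a group. The question named for the series is what ARNT contributes when these cells meet hypoxia. A change that belongs to clone A alone cannot be told apart from one due to the loss of ARNT, since each knockout line is 1 clone. Whether the 3 libraries of a group came from separate cultures is not in the labels, so the p-values measure the spread between these libraries, which may be technical.

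When oxygen falls, the hypoxia-inducible factor subunits HIF1A and EPAS1 (also called HIF2A) are no longer marked for destruction and pair with ARNT, also called HIF1B, to bind the hypoxia response element near genes of glycolysis, angiogenesis and matrix remodelling. The prolyl hydroxylases that mark them, and several histone demethylases, need oxygen themselves, and low oxygen also reaches sterol synthesis, protein folding and translation by routes that do not pass through ARNT. Pancreatic ductal adenocarcinoma is a dense tumor known for poor oxygen supply.

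The 6 libraries held between 29414653 and 34341993 counts. Replicate 1 stood apart from the other two in both groups of clone A. The chi-square per degree of freedom of hypoxia replicate 1 was 43.8 against replicate 2 and 42 against replicate 3, while replicates 2 and 3 differed by 5.29. In normoxia the same figures were 15.2, 14.9 and 4.78. The biological coefficient of variation was 12.7% in hypoxic clone A and 5.46% in normoxic clone A. Mitochondrial DNA-encoded transcripts took 4.21%, 3.2% and 2.93% of the counts in hypoxia, against 2.69%, 4.24% and 3.97% in normoxia, so the odd library was the high one in hypoxia and the low one in normoxia; its part in the results was not tested beyond the values given without it. ARNT (chromosome 1) had 68.3, 68.2 and 68.8 CPM in hypoxic clone A, against 76.03, 77.4 and 73.1 CPM in normoxic clone A (CPM, read counts put on one scale across libraries with TMM factors; log2 fold change -0.14 ± 0.09, adjusted p = 0.25). Cas9 cuts can leave a transcript in place, so this level says nothing on the protein. Markers of the line, KRT8, KRT18, KRT19 and VIM, had between 9103 and 196075 counts in every library, and KRT7 had 62 to 105. Of 21 markers of blood, endothelial, fibroblast, islet, acinar and liver cells, MS4A1, CDH5, INS and PRSS1 had no count in any of the 6, and the list summed to 248 to 308 CPM in hypoxia and 293 to 329 CPM in normoxia, most of it COL1A1 and CD68. The endothelial marker PECAM1 was the only one of the 11 tested that was called, with 29, 18 and 19 counts in hypoxia, against 4, 3 and 1 in normoxia; its call was lost without normoxia replicate 3 (adjusted p = 0.0528).

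Hypoxia changed the level of 3097 genes in clone A, 1453 higher and 1644 lower. Which direction had more calls depended on the setting, with 1565 higher and 1478 lower under RLE factors, 1802 and 1735 in DESeq2, and 2922 and 2861, 5783 in all, when the 18 libraries in regular medium were fitted alone. A call needed an adjusted p (Benjamini-Hochberg) below 0.05 from the quasi-likelihood test of edgeR, and called genes were 22.2% of those tested, 10.4% higher and 11.8% lower. Rises were larger than falls: of the called genes, 515 rose and 169 fell by at least 2-fold, together 4.91% of those tested. Of all 13943 genes tested, called or not, 3173 had every hypoxic library above every normoxic one and 3783 had every one below. A lack of overlap between the groups, given for single genes below, was therefore common. In bulk RNA, a change in the number of cells of a state and a change in the RNA per cell cannot be told apart. Hypoxia replicate 1 was the highest of its group in 914 of the genes called higher and the lowest in 1066 of those called lower. Without it 1916 genes were called, 894 higher and 1022 lower, of which 1799 were among the original calls. Without normoxia replicate 2 the count was 2054, and without both clone A libraries numbered 1, a setting chosen after seeing the data, it was 1079.

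Among the 12 largest rises RAB17 came first. RAB17 (chromosome 2), a small GTPase of trafficking in polarised epithelial cells, stood at 38.2, 11.7 and 13.9 CPM in hypoxia, against 1.63, 1.48 and 1.44 CPM in normoxia (log2 3.81 ± 0.74, adjusted p = 0.000751). HID1, a protein of the trans-Golgi network, had 65.7, 17.6 and 21.7 CPM in hypoxia, against 2.83, 2.57 and 2.77 CPM in normoxia (log2 3.68 ± 0.54). For both, every hypoxic library lay above every normoxic one, and hypoxia replicate 1 was the high one. CNNM1, a relative of the cyclin M metal transporters, had 161, 68.5 and 78.5 CPM in hypoxia, against 19.97, 19.02 and 22.3 CPM in normoxia (log2 2.33 ± 0.35). RNF24, a ring finger protein, had 149, 59.4 and 79.7 CPM in hypoxia, against 18.6, 18.5 and 18.3 CPM in normoxia (log2 2.38 ± 0.42). GALM, the mutarotase of galactose metabolism, had 91.1, 33.8 and 42.3 CPM in hypoxia, against 13.95, 13.6 and 12.1 CPM in normoxia (log2 2.08 ± 0.40). The other large rises were in GLIPR1, SKIDA1, CDR2L, MRPS6, ID2, BFSP1 and NFKBIA, with log2 values between 1.52 and 1.86. MRPS6 encodes a protein of the mitochondrial ribosome, ID2 an inhibitor of basic helix-loop-helix factors, and NFKBIA the inhibitor that holds NF-kB in the cytosol. NFKBIA lost its call without any 1 of 5 libraries, with an adjusted p of 0.156 without hypoxia replicate 1, 0.0516 without hypoxia replicate 3 and 0.0836, 0.1 and 0.0734 without normoxia replicates 1, 2 and 3; the other 11 held whichever clone A library was left out. In 10 of the 12 rises hypoxia replicate 1 was the highest of its group.

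Falls were smaller than rises, and FOSL1 came first among the 12 largest. FOSL1, an AP-1 subunit of the FOS family tied to invasive growth, had 31.6, 73.97 and 62.5 CPM in hypoxia, against 187, 179 and 179 CPM in normoxia (log2 -1.70 ± 0.31, adjusted p = 0.000508). EDN1, the vasoconstrictor endothelin 1, had 11.1, 12.5 and 13.6 CPM in hypoxia, against 39.03, 34.3 and 39.8 CPM in normoxia (log2 -1.61 ± 0.19, adjusted p = 6.36e-06). Hypoxia replicate 1 was the lowest of all 6 libraries for both genes. RRS1, needed to build the large ribosomal subunit, had 5.57, 12.1 and 8.96 CPM in hypoxia, against 24.8, 22.8 and 22.6 CPM in normoxia (log2 -1.40 ± 0.21). WDR4, part of a transfer RNA methyltransferase, had 14.2, 25.2 and 21.6 CPM in hypoxia, against 52.7, 49.6 and 47.2 CPM in normoxia (log2 -1.29 ± 0.20). MAP3K14, the NIK kinase of the noncanonical NF-kB pathway, had 26.1, 39.8 and 31.7 CPM in hypoxia, against 80.5, 75.5 and 75.7 CPM in normoxia (log2 -1.25 ± 0.23). NKX6-2, MT1E, ABLIM3, INAFM2, CDCA7 and ZNF239 were also among the 12 largest falls, with log2 values between -1.68 and -1.21, and none of the 12 lost its call when 1 clone A library was left out. In 11 of them hypoxia replicate 1 was the lowest of its group.

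**Figure D1:**
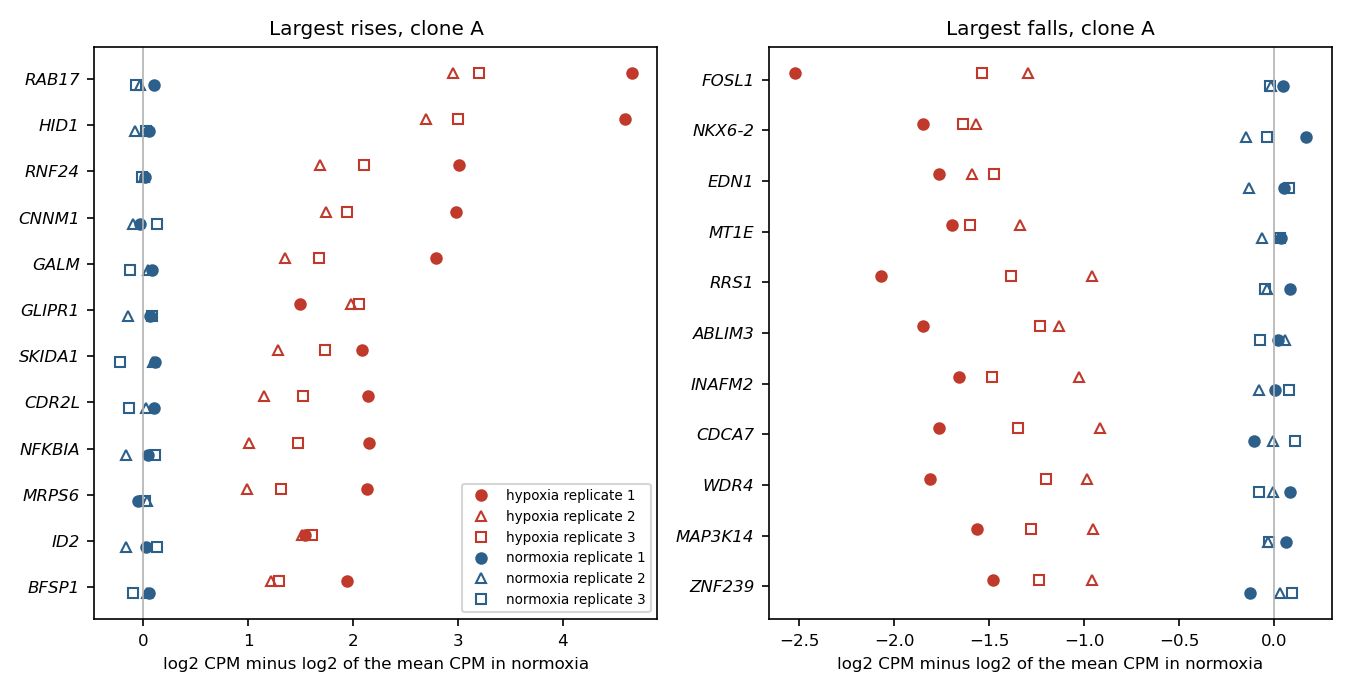
The 12 largest rises (left) and 11 of the 12 largest falls (right) in clone A, one row a gene; the horizontal axis is the log2 CPM of a library minus the log2 of the mean normoxic CPM. Points are libraries, hypoxia in red and normoxia in blue, with a marker shape for each replicate. The groups of a gene do not overlap because that was a condition for showing it, and hypoxia replicate 1 is the farthest from normoxia in 10 of the 12 rises and 11 of the 12 falls.

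Ranked by adjusted p, the 8 leading rises and 8 leading falls were mostly of moderate size. ZMYND8 (chromosome 20), a chromatin reader, had 212, 192 and 196 CPM in hypoxia, against 87.4, 92.4 and 87.9 CPM in normoxia (log2 1.16 ± 0.10, adjusted p = 6.7e-08). The forkhead factor FOXL1 had 56.9, 39.4 and 42.4 CPM in hypoxia, against 18.9, 20.4 and 18.8 CPM in normoxia (log2 1.26 ± 0.11, adjusted p = 2.59e-07). Every hypoxic library of both genes was near or above 2-fold over every normoxic one. FBXO43, an inhibitor of the anaphase-promoting complex, had 29.3, 31.6 and 30.8 CPM in hypoxia, against 10.2, 11.9 and 11.9 CPM in normoxia (log2 1.43 ± 0.15, adjusted p = 1.07e-06). ACSS2, which makes acetyl-CoA from acetate, had 54.9, 40.7 and 40.2 CPM in hypoxia, against 19.1, 17.995 and 16.3 CPM in normoxia (log2 1.35 ± 0.16). ERRFI1, a feedback inhibitor of the EGF receptor, had 1623, 1329 and 1458 CPM in hypoxia, against 854, 948 and 912 CPM in normoxia (log2 0.70 ± 0.09). LIMCH1, which binds and activates non-muscle myosin, was scarce, with 1.51, 1.48 and 0.953 CPM in hypoxia, against 0.195, 0.192 and 0.0565 CPM in normoxia (log2 3.15 ± 0.36). Lower genes in this ranking were ABLIM3, N6AMT1, ANPEP, GGCX, CEP41, UTP14A, PFDN6 and NCBP1, with log2 values between -1.37 and -0.9. ANPEP, the surface aminopeptidase N, had 52.4, 76.3 and 73.8 CPM in hypoxia, against 165, 156 and 146 CPM in normoxia (log2 -1.21 ± 0.13). NCBP1, the large subunit of the nuclear cap-binding complex, had 43.5, 56.6 and 55.6 CPM in hypoxia, against 98.4, 104 and 107 CPM in normoxia (log2 -0.99 ± 0.11). On the annotation used, 24.2% of the exon length of GLIPR1 and 34.9% of that of PFDN6 is shared with another gene, so their counts may in part belong to it.

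Part of the known HIF targets rose in the ARNT-knockout clone. Of 39 canonical targets outside glycolysis, 18 were called higher and 1 lower in clone A, beside 10.4% and 11.8% of all genes, with a median log2 of 0.36 against -0.01 over all genes tested. Without hypoxia replicate 1, 16 were higher and 1 lower, and without both libraries numbered 1, 13 and 1. In clone B 15 were higher and 1 lower with a median log2 of 0.26, beside 4.46% and 4.84% of all genes. In parental cells 35 of the 39 were higher with a median of 1.93, beside 15.4% of all genes. The rise was smaller in clone A than in parental cells in 31 of the 39 by the test of the difference itself, beside 4.04% of all genes with a lower response in clone A.

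Promoters of a pair of these targets are shown because both genes rose in a clone labelled as lacking ARNT, which is known to bind the motif; capitals mark the core of the hypoxia response element, ACGTG on either strand. The windows run from 250 bases before to 50 bases after the gene's start and come from RefSeq on GRCh38.p14: ANKRD37 at chr4:185396591-185396890 and KDM4B at chr19:4968863-4969162, both on the plus strand. The ANKRD37 window holds 3 matches, of which the first pair are both strands of one palindrome, and the KDM4B window holds both strands of another.
ANKRD37: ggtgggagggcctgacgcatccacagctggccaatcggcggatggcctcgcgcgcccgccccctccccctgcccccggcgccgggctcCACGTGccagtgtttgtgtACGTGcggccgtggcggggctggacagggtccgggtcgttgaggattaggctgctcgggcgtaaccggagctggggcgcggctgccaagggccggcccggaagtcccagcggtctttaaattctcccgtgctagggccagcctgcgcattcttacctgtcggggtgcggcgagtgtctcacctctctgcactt
KDM4B: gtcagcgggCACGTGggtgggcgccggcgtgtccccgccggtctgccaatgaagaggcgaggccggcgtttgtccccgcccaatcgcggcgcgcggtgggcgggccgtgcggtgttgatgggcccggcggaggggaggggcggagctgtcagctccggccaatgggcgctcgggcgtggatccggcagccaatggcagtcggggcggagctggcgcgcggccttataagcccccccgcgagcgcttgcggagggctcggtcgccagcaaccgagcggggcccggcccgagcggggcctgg

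A promoter was at hand for 10941 tested genes, and 25.8% of them held ACGTG on either strand. The share was 25.3% among genes called higher in clone A and 30.3% among genes called lower. It was 63.0% among the 27 canonical HIF targets with a promoter, where 10 of the 13 called higher and 7 of the 14 not called held it. The window of KDM3A, which was called higher, had 0 matches. The looser core that also admits GCGTG was held by 61.7% of all, by 58.6% of the genes called higher and by 66.3% of those called lower.

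KDM3A (chromosome 2), a histone H3 lysine 9 demethylase that needs oxygen to work, had 189.6, 188 and 206 CPM in hypoxic clone A, against 80.5, 88.4 and 85.4 CPM in normoxic clone A (log2 1.20 ± 0.12, adjusted p = 1.07e-06). All 3 hypoxic libraries were more than 2-fold above any normoxic one. KDM4B, its relative, had 28.2, 24.5 and 25.4 CPM in hypoxia, against 16.9, 14.1 and 14.3 CPM in normoxia (log2 0.79 ± 0.12, adjusted p = 0.000104). ANKRD37, a small ankyrin repeat protein, had 2.54, 2.11 and 2.23 CPM in hypoxia, against 0.911, 0.738 and 0.593 CPM in normoxia (log2 1.62 ± 0.21, adjusted p = 1.65e-05); another gene overlaps 35.2% of its exon length. PLOD2, which hydroxylates collagen lysines, had 725, 412 and 459.5 CPM in hypoxia, against 208, 215 and 227 CPM in normoxia (log2 1.30 ± 0.21), and hypoxia replicate 1 was well above the others. NDRG1, a stress-induced growth suppressor, had 8.89, 6.18 and 6.91 CPM in hypoxia, against 3.71, 2.66 and 3.05 CPM in normoxia (log2 1.22 ± 0.19). PPFIA4, a liprin scaffold protein, had 2.54, 2.27 and 1.76 CPM in hypoxia, against 0.748, 0.834 and 0.791 CPM in normoxia (log2 1.46 ± 0.28). For these 6 genes the groups did not overlap, as for 3173 of the 13943 genes tested in this direction. No call of the 6 depended on a single clone A library. KDM4C and KDM5B did not pass, with log2 values of 0.22 ± 0.12 and -0.12 ± 0.09.

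VEGFA, the main angiogenic growth factor, had 112, 95.8 and 107 CPM in hypoxia, against 68.1, 67.1 and 73.9 CPM in normoxia (log2 0.59 ± 0.13, adjusted p = 0.00272). Its parental log2 change was 2.79 ± 0.14, and the response of clone A minus that of parental cells was -2.20 ± 0.19 (adjusted p = 1.31e-08). STC2, a secreted glycoprotein hormone, had 149.5, 160.02 and 182 CPM in hypoxia, against 121, 116 and 114 CPM in normoxia (log2 0.49 ± 0.09), with 2.78 ± 0.09 in parental cells. CA9, the hypoxia-marker carbonic anhydrase, had no count in hypoxic clone A and 0.0650, 0 and 0 CPM in normoxic clone A, so no fold is given. TFRC, the transferrin receptor, had 1042, 1308 and 1326 CPM in hypoxia, against 1050.4, 1134 and 1104 CPM in normoxia, which overlap (log2 0.16 ± 0.15, adjusted p = 0.471).

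**Figure D2:**
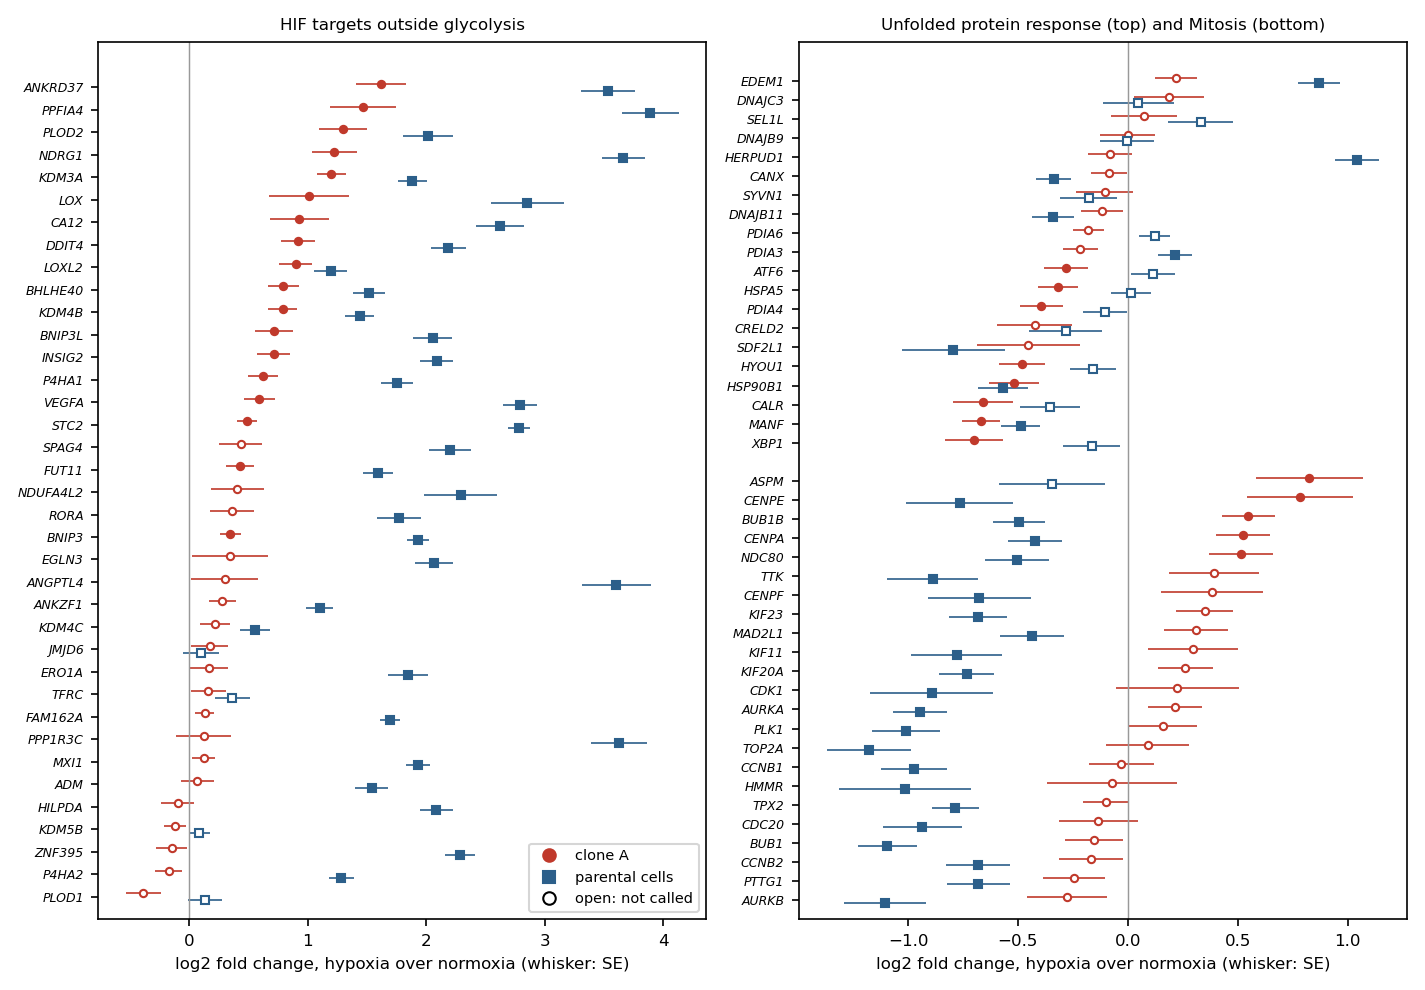
Log2 hypoxia responses of single genes in clone A and in parental cells, with filled points for called changes and open points for changes that did not pass. Of the 39 canonical HIF targets 37 are drawn, with the unfolded protein response and mitosis lists beside them. CA9 is left out for want of counts, and another target is not reported here. The HIF targets drawn lie between -0.39 (PLOD1, not called) and 1.62 (ANKRD37) in clone A, where parental cells reach 3.89 (PPFIA4). The unfolded protein response members of clone A lie mostly at or below 0. The mitosis members lie below 0 in parental cells and mostly around or above 0 in clone A.

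The HIF subunits themselves moved in another way than in parental cells. HIF1A (chromosome 14), whose protein is the oxygen-labile subunit, had 235, 198 and 209.7 CPM in hypoxic clone A, against 129.9, 136 and 142 CPM in normoxic clone A (log2 0.65 ± 0.16, adjusted p = 0.00484). Each hypoxic library exceeded each normoxic one. In clone B HIF1A also rose (log2 0.77 ± 0.16, adjusted p = 0.00347), and in parental cells it fell (log2 -0.67 ± 0.16, adjusted p = 0.00221). EPAS1 had 275, 269 and 279 CPM in hypoxia, against 298, 293 and 283 CPM in normoxia (log2 -0.09 ± 0.13, adjusted p = 0.683), where parental cells rose by 1.02 ± 0.14. EP300, a coactivator that the HIF complex recruits, had 119.9, 130.02 and 128 CPM in hypoxia, against 87.6, 87.5 and 86.6 CPM in normoxia (log2 0.53 ± 0.14, adjusted p = 0.00765). HIF1AN, the asparaginyl hydroxylase that blocks that recruitment, had 225, 208 and 201 CPM in hypoxia, against 238, 249 and 235 CPM in normoxia (log2 -0.19 ± 0.12, adjusted p = 0.279). HIF1A and EP300 were the 2 of 9 tested HIF pathway components that were called, both higher, beside 10.4% of all genes. None of the 9 was called without both clone A libraries numbered 1. EGLN1 and EGLN2 were among those under the filter, with 78 and 0 counts summed over all 27 libraries. The usually abundant ALDOA, SDHA, RPL15 and JUNB had 101, 0, 0 and 0 in the same table, so such counts may not reflect transcript levels, and why they are low was not tested. The wider list of histone demethylases had 5 of 17 higher and 1 lower, beside 10.4% and 11.8% of all genes. The counts were 8 and 3 in the 18-library fit, beside 2922 and 2861 of its 13676 genes. In the 27-library setting 3 were higher without hypoxia replicate 3, normoxia replicate 1 or normoxia replicate 3. RIOX2, a histidine hydroxylase that also acts in ribosome assembly, was the one that fell, with 34.01, 41.3 and 38.8 CPM in hypoxia against 58.1, 58.5 and 62.1 CPM in normoxia (log2 -0.65 ± 0.15); 27.6% of its exon length is shared with another gene.

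Of 21 tested genes of glycolysis and glucose uptake 4 were called higher and none lower in clone A, beside 10.4% and 11.8% of all genes. Their median log2 was 0.25. In parental cells 20 of the 21 were higher with a median of 1.31, beside 15.4% of all genes. The response was lower in clone A for 15 of the 21 by the test of the difference, beside 4.04% of all genes. PDK1, the kinase that closes pyruvate entry into the citric acid cycle, had 20.5, 38.3 and 33.99 CPM in hypoxia, against 13.1, 13.8 and 14.99 CPM in normoxia (log2 1.15 ± 0.17, adjusted p = 5.9e-05). PFKFB4, a kinase and phosphatase that sets the pace of glycolysis, had 16.4, 16.8 and 16.6 CPM in hypoxia, against 8.13, 7.99 and 7.62 CPM in normoxia (log2 1.07 ± 0.17). LDHA, the lactate dehydrogenase subunit, had 1572, 1761 and 1847 CPM in hypoxia, against 1189.5, 1237 and 1204 CPM in normoxia (log2 0.51 ± 0.11). These 3 had no overlap between the groups. The fourth, PDK3, with 2.54, 1.70 and 1.55 CPM in hypoxia against 1.24, 0.962 and 0.960 CPM in normoxia, lost its call without hypoxia replicate 1 (adjusted p = 0.0689). SLC2A1, the glucose transporter GLUT1, had 15.5, 22.9 and 21.8 CPM in hypoxia, against 18.4, 15.3 and 14.7 CPM in normoxia (log2 0.31 ± 0.15, adjusted p = 0.145); hypoxia replicate 1 lay inside the normoxic range, and without it SLC2A1 passed (log2 0.47, adjusted p = 0.0447). ENO1 and PKM did not pass (log2 0.10 ± 0.16 and 0.38 ± 0.19). With the 18 regular-medium libraries alone, 10 of the 21 were higher and 4 lower, beside 2922 and 2861 of the 13676 genes tested there.

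Clone A and parental cells shared part of their changes. Parental cells had 4212 called genes (30.2% of those tested), 2141 higher and 2071 lower (15.4% and 14.9%). Of the 1453 genes called higher in clone A, 726 were also called higher in parental cells, which is 49.97% of the clone A calls and 33.9% of the parental ones. Of the 1644 called lower, 854 were called lower in parental cells, 51.9% of the clone A calls and 41.2% of the parental ones. Across the 13943 genes the log2 changes of clone A and parental cells had a Pearson r of 0.484. Across the 7753 genes with at least 20 CPM in a clone A or parental group it was 0.579. The points are genes of the same libraries and not independent. The test of the difference called 869 genes (6.23% of those tested), 306 with a higher and 563 with a lower response in clone A. Among the 2141 genes called higher in parental cells, 454 had a lower response in clone A, and 664 were called higher in clone A with no called difference.

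**Figure D3:**
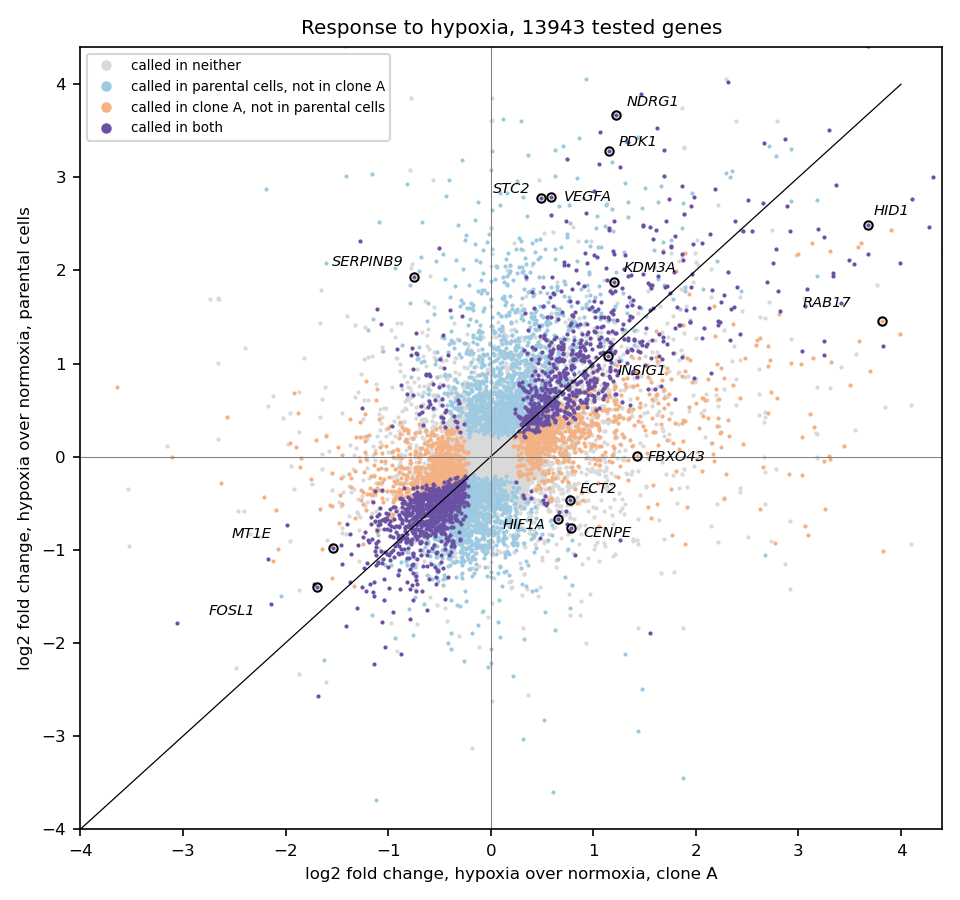
The log2 hypoxia response of each tested gene in clone A (horizontal axis) and in parental cells (vertical axis), colored by whether it was called in clone A, in parental cells, in both or in neither; the line marks equal responses, and 53 genes lie outside the axes, which run from -4 to 4.4. HIF1A, CENPE and ECT2 lie at the lower right, higher in clone A and lower in parental cells, and SERPINB9 at the upper left.

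In all 76 genes changed in opposite directions, 55 lower in clone A and higher in parental cells and 21 the other way round. SERPINB9, an inhibitor of granzyme B, had 4.96, 5.80 and 5.83 CPM in hypoxic clone A, against 9.76, 9.43 and 8.78 CPM in normoxic clone A (log2 -0.75 ± 0.17, adjusted p = 0.00313). Every hypoxic library of clone A lay below every normoxic one. In parental cells it averaged 39.6 ± 1.84 CPM in hypoxia and 10.4 ± 0.820 CPM in normoxia (SD, n = 3 each; log2 1.93 ± 0.17), and the difference of the responses was -2.68 ± 0.24 (adjusted p = 2.38e-08). PDGFB, a growth factor for pericytes and stromal cells, had 25.99, 31.8 and 28.8 CPM in hypoxia, against 42.6, 39.1 and 40.7 CPM in normoxia (log2 -0.50 ± 0.14), with 2.24 ± 0.15 in parental cells; its fall in clone A was lost without hypoxia replicate 1 (adjusted p = 0.0767) or normoxia replicate 1 (adjusted p = 0.0521). Another difference was in CADM1. CADM1, a cell adhesion molecule, rose in both but by less in clone A (log2 0.75 ± 0.19 in clone A and 3.20 ± 0.17 in parental cells), and its clone A call was lost without hypoxia replicate 1 (adjusted p = 0.0724).

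Genes higher in clone A and lower in parental cells included several of mitosis. ECT2, the exchange factor that starts cytokinesis, had 692, 752 and 820.02 CPM in hypoxic clone A, against 424, 449 and 457 CPM in normoxic clone A (log2 0.77 ± 0.17, adjusted p = 0.00204), and a parental log2 change of -0.47 ± 0.17. TM4SF18, a tetraspanin-like membrane protein, had 109, 80.4 and 98.3 CPM in hypoxia, against 54.2, 55.4 and 59.9 CPM in normoxia (log2 0.77 ± 0.17), with -0.80 ± 0.17 in parental cells. Both separated the groups of clone A completely. CENPE, the kinetochore motor, had 109, 136 and 142 CPM in hypoxia, against 57.9, 79.5 and 87.7 CPM in normoxia (log2 0.78 ± 0.24), with -0.76 ± 0.24 in parental cells; the clone A call was lost without hypoxia replicates 2 or 3 (adjusted p = 0.0577 and 0.0734) or normoxia replicates 1 or 2 (adjusted p = 0.12 and 0.0501). KIF18A, the motor that dampens chromosome movement, had 63.96, 65.9 and 70.9 CPM in hypoxia, against 36.03, 41.6 and 42.9 CPM in normoxia (log2 0.74 ± 0.22), and lost its call without hypoxia replicate 3 (adjusted p = 0.055) or normoxia replicate 1 (adjusted p = 0.0777).

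**Figure D4:**
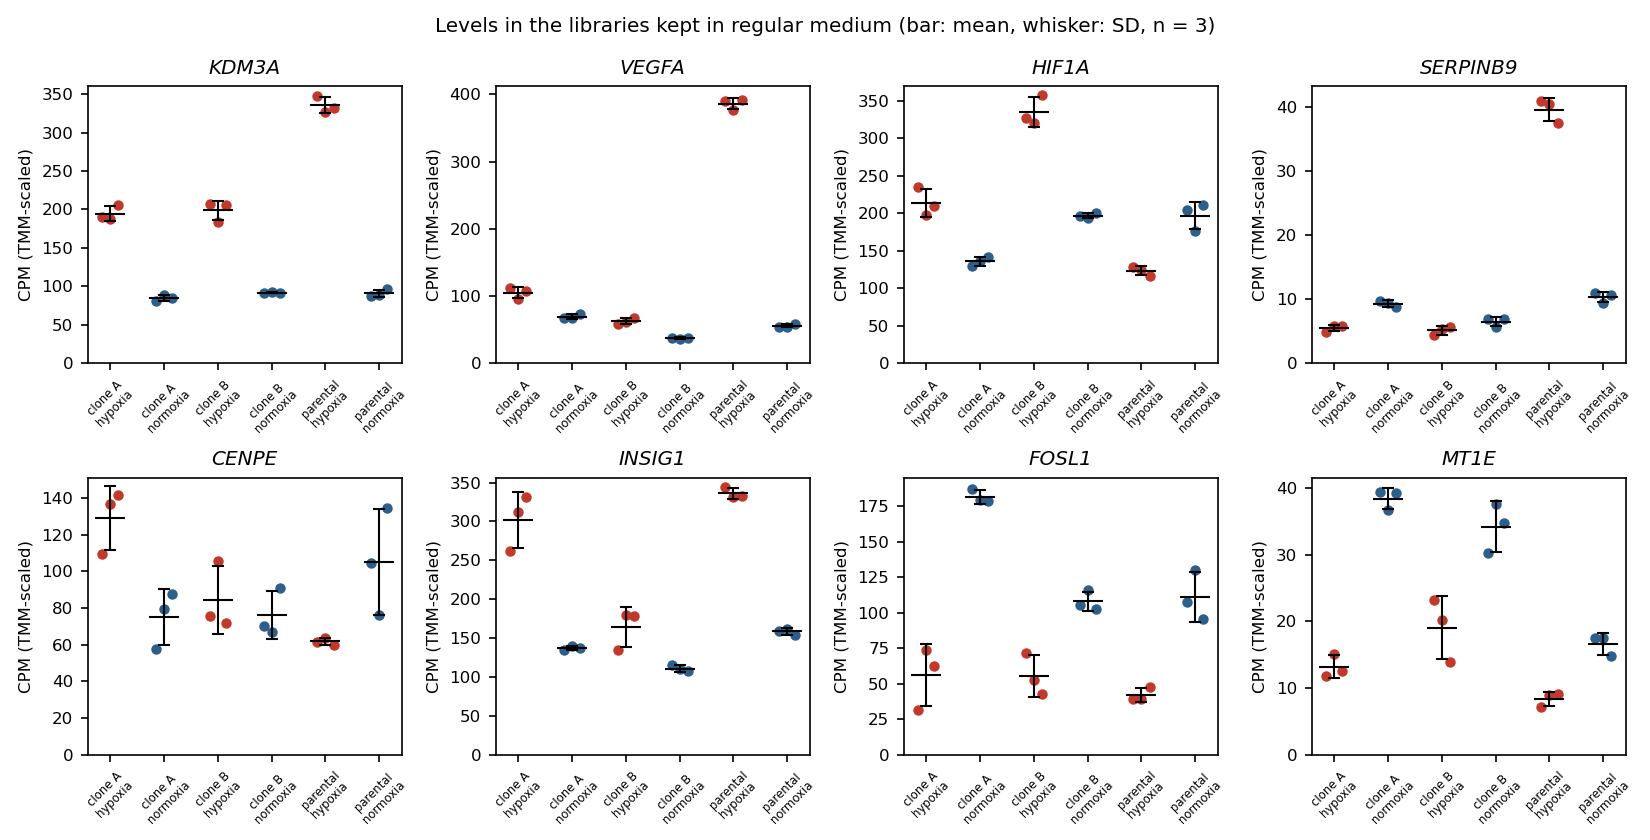
TMM-scaled CPM (vertical axis) of 8 genes in hypoxia and normoxia of clone A, clone B and parental cells; points are libraries, red for hypoxia and blue for normoxia, and bars the group mean with its SD (n = 3). In clone A KDM3A, VEGFA, HIF1A, CENPE and INSIG1 are higher in hypoxia and SERPINB9, FOSL1 and MT1E lower, and parental cells move the other way for HIF1A, SERPINB9 and CENPE.

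Cell division genes did not fall together in hypoxic clone A. Of 23 mitosis genes 5 were called higher and none lower, beside 10.4% and 11.8% of all genes, with a median log2 of 0.23. In clone B none passed in either direction with a median of -0.17, beside 4.46% and 4.84% of all genes. In parental cells 22 of the 23 were lower with a median of -0.78, beside 14.9% of all genes. The response of clone A was higher than that of parental cells for 16 of the 23, beside 2.19% of all genes. The count of 5 was 11 when the 18 regular-medium libraries (2922 of 13676 genes higher) or only the 6 of clone A (2465 of 12595 higher) were fitted. It was 2 without hypoxia replicate 3, 3 without hypoxia replicate 2 or normoxia replicates 1 or 2, and 7 without hypoxia replicate 1. BUB1B, a kinase of the spindle checkpoint, had 133, 165 and 169 CPM in hypoxia, against 108, 109 and 102 CPM in normoxia (log2 0.55 ± 0.12, adjusted p = 0.00198). CENPA, the histone H3 variant of centromeres, had 74.7, 80.97 and 91.4 CPM in hypoxia, against 56.1, 56.5 and 59.2 CPM in normoxia (log2 0.53 ± 0.12). The groups of both lay apart. TOP2A, which untangles DNA before division, had 869, 1232 and 1267 CPM in hypoxia, against 1081, 1038 and 1045 CPM in normoxia, with hypoxia replicate 1 below and the other two above the normoxic libraries (log2 0.09 ± 0.19, adjusted p = 0.772).

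Of 30 tested DNA replication genes 9 were lower and none higher in clone A, beside 11.8% and 10.4% of all genes. Their median log2 was -0.28. In parental cells 29 were lower with a median of -0.81, beside 14.9% of all genes. By the test of the difference 11 of the 30 had a higher response in clone A, beside 2.19% of all genes. MCM5, a subunit of the replicative helicase, had 41.3, 59.2 and 59.98 CPM in hypoxia, against 98.995, 87.99 and 86.5 CPM in normoxia (log2 -0.77 ± 0.16, adjusted p = 0.00137). POLA1, the catalytic subunit of the primase polymerase, had 10.5, 17.3 and 17.8 CPM in hypoxia, against 23.6, 27.2 and 27.2 CPM in normoxia (log2 -0.78 ± 0.15). MCM10, an initiation factor, had 27.1, 46.9 and 43.1 CPM in hypoxia, against 63.3, 65.4 and 65.2 CPM in normoxia (log2 -0.73 ± 0.17). In these 3 hypoxia replicate 1 was lower than the other two by far. The 18-library fit had 15 lower and 1 higher. The count of 9 was 5 without that library, 6 without any 1 of the normoxic libraries and 1 without both libraries numbered 1. CCNE1, the cyclin that drives entry into S phase, was among 2 of 19 G1 and p53 genes that fell, with 15.01, 13.8 and 11.01 CPM in hypoxia, against 26.5, 28.2 and 27.1 CPM in normoxia (log2 -1.04 ± 0.13, adjusted p = 1.06e-05), and its response in clone A minus that in parental cells was -0.80 ± 0.18 (adjusted p = 0.00609). The other was CDK4 (log2 -0.58 ± 0.17), lost without hypoxia replicate 1 (adjusted p = 0.111). The 18-library fit had 5 of the 19 higher and 4 lower. The list also had 1 gene called higher. Its 1 higher and 2 lower in the 27-library fit were not above the 10.4% and 11.8% of all genes. The gene called higher kept its call when hypoxia replicate 2 was left out and lost it without any other clone A library.

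Genes of sterol synthesis are driven by SREBF2 when sterols run short, and several of their enzymes consume oxygen. Of 21 tested cholesterol genes 12 were higher and none lower in clone A, beside 10.4% and 11.8% of all genes, with a median log2 of 0.47; the count was 9 to 11 when 1 clone A library was left out. Clone B had 3 higher (4.46% of all genes) with a median of 0.20 and parental cells 13 higher (15.4% of all genes) with a median of 0.41. For none of the 21 was a difference between clone A and parental cells called. INSIG1 (chromosome 7), which retains the sterol sensor in the endoplasmic reticulum, had 262, 313 and 332 CPM in hypoxia, against 134, 139 and 138 CPM in normoxia (log2 1.14 ± 0.16, adjusted p = 3.28e-05). STARD4, a sterol carrier, had 112, 115 and 109 CPM in hypoxia, against 52.8, 54.3 and 57.8 CPM in normoxia (log2 1.03 ± 0.19). Each hypoxic library of both stood above every normoxic one. IDI1, which isomerises the isoprenoid unit, had 230.5, 264 and 273 CPM in hypoxia, against 143, 139.9 and 151 CPM in normoxia (log2 0.82 ± 0.15), and MVK, mevalonate kinase, had 42.6, 44.7 and 48.2 CPM in hypoxia, against 29.7, 24.5 and 24.6 CPM in normoxia (log2 0.78 ± 0.17). Only 1 of the 16 promoters at hand for the list held TCACNCCAC, a form of the sterol element that 1.12% of all held.

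Of 14 fatty acid genes 6 were higher and 1 lower, beside 10.4% and 11.8% of all genes. The 1 lower was none without hypoxia replicate 3 or normoxia replicate 2 and 2 without hypoxia replicate 2. SCD, the desaturase that makes oleic acid with molecular oxygen, had 4264, 3751 and 3839.9 CPM in hypoxia, against 2385, 2423 and 2249 CPM in normoxia (log2 0.75 ± 0.14, adjusted p = 0.000445). FASN, fatty acid synthase, had 523, 589 and 576 CPM in hypoxia, against 347, 313 and 299.6 CPM in normoxia (log2 0.82 ± 0.13), and ACLY, which supplies its acetyl-CoA, had 538, 592 and 613 CPM in hypoxia, against 436, 402 and 372 CPM in normoxia (log2 0.53 ± 0.10). All 3 genes separated the groups. For none of the 14 was a difference from parental cells called, and in clone B none was called higher.

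Of 20 genes of the unfolded protein response 8 were lower and none higher in clone A, beside 11.8% and 10.4% of all genes, with a median log2 of -0.25, and 6 or 7 were lower when 1 clone A library was left out. With the 18 regular-medium libraries alone 11 were lower and 2 higher. Parental cells had 3 higher and 5 lower, beside 15.4% and 14.9% of all genes. By the test of the difference 3 of the 20 responded lower in clone A than in parental cells, beside 4.04% of all genes. CALR, the chaperone calreticulin, had 666, 753 and 819 CPM in hypoxic clone A, against 1214, 1191 and 1131 CPM in normoxic clone A (log2 -0.66 ± 0.14, adjusted p = 0.00135). HSP90B1, the endoplasmic reticulum form of HSP90, had 247, 266 and 286 CPM in hypoxia, against 369, 395 and 378 CPM in normoxia (log2 -0.52 ± 0.11, adjusted p = 0.00202). MANF, a secreted stress protein, had 23.7, 21.2 and 23.4 CPM in hypoxia, against 36.8, 37.5 and 34.000 CPM in normoxia (log2 -0.67 ± 0.09, adjusted p = 1.67e-05). XBP1, the factor whose spliced form drives these genes, had 27.4, 31.9 and 33.8 CPM in hypoxia, against 53.4, 47.6 and 49.95 CPM in normoxia (log2 -0.70 ± 0.13). The groups did not overlap for any of these 4, whereas the lectin chaperone CANX, with 982, 1053 and 1111 CPM in hypoxia against 1076, 1149 and 1115 CPM in normoxia, did not pass (adjusted p = 0.477).

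The endoplasmic reticulum stress element was searched as CCAAT and CCACG with 9 bases between them, on both strands, because the factors of this pathway are known to bind it; capitals mark the matches in RefSeq promoters of GRCh38.p14, with HSP90B1 at chr12:103930160-103930459 and CALR at chr19:12938359-12938658, both plus strand. It stands in 0.11% of all promoters and in 6 of the 19 of this list, which are 4 of the 8 called lower in clone A (HSPA5, HSP90B1, XBP1 and CALR) and 2 of the 11 not called. The HSP90B1 window holds it once on each strand and the CALR window once on the minus strand.
HSP90B1: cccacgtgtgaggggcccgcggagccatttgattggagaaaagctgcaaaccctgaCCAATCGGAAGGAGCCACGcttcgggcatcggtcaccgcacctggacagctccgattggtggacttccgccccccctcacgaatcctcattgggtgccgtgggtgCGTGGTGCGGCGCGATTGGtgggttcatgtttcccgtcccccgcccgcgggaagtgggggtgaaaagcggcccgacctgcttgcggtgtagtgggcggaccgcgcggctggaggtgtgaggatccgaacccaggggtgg
CALR: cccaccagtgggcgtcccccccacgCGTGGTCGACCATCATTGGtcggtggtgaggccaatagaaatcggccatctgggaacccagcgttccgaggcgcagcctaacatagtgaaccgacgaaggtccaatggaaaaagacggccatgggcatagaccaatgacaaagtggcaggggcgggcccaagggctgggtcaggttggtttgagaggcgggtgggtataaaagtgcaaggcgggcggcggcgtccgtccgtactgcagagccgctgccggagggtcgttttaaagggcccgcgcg

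Of 17 heat shock genes, mostly cytosolic chaperones, 5 were lower and none higher, beside 11.8% and 10.4% of all genes, and 12 did not pass. HSPA8, the constitutive HSP70, had 1432, 1666 and 1755 CPM in hypoxia, against 2406, 2356 and 2291 CPM in normoxia (log2 -0.54 ± 0.13, adjusted p = 0.00376), and STIP1, which links HSP70 to HSP90, had 372, 419.9 and 427 CPM in hypoxia, against 559, 573 and 537 CPM in normoxia (log2 -0.45 ± 0.12). Parental log2 changes were -0.55 ± 0.13 and -0.47 ± 0.12 for HSPA8 and STIP1, and for none of the 17 was a difference called. The count of 5 was 3 without normoxia replicate 1 and 0 without both clone A libraries numbered 1.

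The amino acid response driven by ATF4 showed little net change in clone A. Of 34 genes 4 were higher and 4 lower, near the shares of all genes, with a median log2 of -0.08. The 18-library fit had 7 higher and 11 lower, beside 2922 and 2861 of its 13676 genes. Parental cells had 22 higher and none lower with a median of 0.96, beside 15.4% and 14.9% of all genes. By the test of the difference 20 of the 34 responded less in clone A, beside 4.04% of all genes. SLC38A2, a transporter of neutral amino acids, rose in clone A, with 2904, 2027 and 2502 CPM in hypoxia, against 963, 975 and 992 CPM in normoxia (log2 1.34 ± 0.30, adjusted p = 0.00229). ALDH18A1, which starts proline synthesis, fell, with 64.5, 87.03 and 82.8 CPM in hypoxia, against 156, 157 and 148 CPM in normoxia (log2 -0.98 ± 0.14, adjusted p = 6.02e-05). Neither gene had overlapping groups. DDIT4, a brake on mTORC1 also on the HIF list, had 223, 177 and 201 CPM in hypoxia, against 113, 106 and 99.1 CPM in normoxia (log2 0.92 ± 0.14), with 41.2% of its exon length shared with another gene. GARS1, the glycyl transfer RNA synthetase, did not pass in clone A (log2 0.06 ± 0.09, adjusted p = 0.646) and rose in parental cells (log2 0.95 ± 0.09). The count of 4 lower was 2 without hypoxia replicate 1 or any 1 of the normoxic libraries.

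Metallothioneins, small cysteine-rich proteins that bind zinc and copper, were among the genes that fell. Of 8 tested genes of metallothionein and zinc response 3 were lower and none higher in clone A, beside 11.8% and 10.4% of all genes. The count was the same whichever single library was left out. Clone B and parental cells had 3 lower each, beside 4.84% and 14.9% of all genes. MT1E (chromosome 16) had 11.9, 15.1 and 12.6 CPM in hypoxia, against 39.4, 36.6 and 39.1 CPM in normoxia (log2 -1.54 ± 0.23, adjusted p = 7.15e-05). MT2A had 49.8, 72.8 and 74.5 CPM in hypoxia, against 159, 135 and 134 CPM in normoxia (log2 -1.12 ± 0.22, adjusted p = 0.000763), and MT1A 7.31, 6.94 and 7.74 CPM in hypoxia, against 11.8, 12.1 and 11.8 CPM in normoxia (log2 -0.70 ± 0.18). All 3 had their hypoxic libraries below their normoxic ones. The zinc exporter SLC30A1 did not pass (log2 0.30 ± 0.18, adjusted p = 0.254). These genes are known to be switched on by a zinc-sensing factor that binds the metal response core, which is why the MT2A promoter is printed (RefSeq, GRCh38.p14, chr16:56608334-56608633, plus strand). Capitals mark TGCACNC or TGCGCNC on either strand, with 8 matches in that window. Of all promoters 38.7% held at least 1. A promoter was at hand for 4 genes of the list. The 1 called lower held the core, and so did 2 of the 3 not called.
MT2A: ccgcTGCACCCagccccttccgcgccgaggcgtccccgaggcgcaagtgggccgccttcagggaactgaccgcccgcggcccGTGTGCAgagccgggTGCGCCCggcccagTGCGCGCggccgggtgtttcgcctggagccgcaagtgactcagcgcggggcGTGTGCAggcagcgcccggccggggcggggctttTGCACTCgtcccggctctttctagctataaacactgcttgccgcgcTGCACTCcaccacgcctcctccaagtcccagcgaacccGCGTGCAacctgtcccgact

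Targets of NRF2, the antioxidant regulator, had 4 of 18 lower and none higher, beside 11.8% and 10.4% of all genes. The 18-library fit had 7 lower and 4 higher and the fit of only the 6 clone A libraries 5 lower and 2 higher, while RLE factors left 2 lower. ABCC3, an export pump for conjugates, had 35.3, 50.98 and 46.8 CPM in hypoxia, against 78.3, 70.3 and 70.4 CPM in normoxia (log2 -0.72 ± 0.14, adjusted p = 0.000661). Every hypoxic library lay below every normoxic one. The count of 4 was 2 without any 1 of the normoxic libraries, and without hypoxia replicate 1 it was 3, with 1 higher.

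Of 25 immediate early and AP-1 genes 6 were higher and 3 lower, beside 10.4% and 11.8% of all genes. With 1 clone A library left out, 4 to 6 were higher and 2 or 3 lower. The 18-library fit had 13 and 5, beside 2922 and 2861 of its 13676 genes. EGR1, a serum-induced zinc finger factor, had 6.18, 5.43 and 5.18 CPM in hypoxia, against 1.79, 1.38 and 2.91 CPM in normoxia (log2 1.46 ± 0.28, adjusted p = 0.000664), and KLF6, a Kruppel-like factor, had 365, 371 and 389.9 CPM in hypoxia, against 255, 261 and 262 CPM in normoxia (log2 0.53 ± 0.07, adjusted p = 3.28e-05). FOSL1, given above, was the largest fall on the list, and PHLDA1, a growth-factor-induced pleckstrin-homology protein, was smaller (log2 -0.34 ± 0.08). Inflammatory and NF-kB genes had 4 of 19 higher and 2 lower, but 0 and 1 without hypoxia replicate 1, 3 and 1 without hypoxia replicate 3, 1 and 1 without normoxia replicate 1, 2 and 1 without normoxia replicate 2 and 1 and 2 without normoxia replicate 3. CCL2, a monocyte chemokine, had 10.1, 4.35 and 4.73 CPM in hypoxia, against 1.07, 1.12 and 0.904 CPM in normoxia (log2 2.63 ± 0.69), and was lost without hypoxia replicate 1 (adjusted p = 0.0581), the high library. NFKB2, the noncanonical NF-kB subunit, fell with 22.8, 29.4 and 26.8 CPM in hypoxia, against 63.1, 57.8 and 56.2 CPM in normoxia (log2 -1.16 ± 0.21, adjusted p = 0.000348), and its call held without any single library. Interferon-stimulated genes had 7 of 18 lower and 1 higher; STAT2, which carries the interferon signal to the nucleus, had 33.3, 25.7 and 26.1 CPM in hypoxia, against 47.5, 45.998 and 42.2 CPM in normoxia (log2 -0.67 ± 0.17), and IFI35, an interferon-induced leucine zipper protein, had 11.1, 9.81 and 10.2 CPM in hypoxia, against 17.5, 16.01 and 16.04 CPM in normoxia (log2 -0.67 ± 0.15). The count lower was 5 to 7 when 1 clone A library was left out, and the 1 higher was none without hypoxia replicate 1 and 2 without normoxia replicate 3.

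Of the lists of cell state, the mesenchymal and epithelial ones were called in shares near those of all genes. The receptor kinase AXL, a mark of the mesenchymal state, had 127, 287 and 274 CPM in hypoxia, against 515, 491 and 481 CPM in normoxia (log2 -1.11 ± 0.18, adjusted p = 0.000145). S100A4, a calcium-binding protein of motile cells, went the other way, with 340.01, 209.7 and 232 CPM in hypoxia, against 134, 129 and 126 CPM in normoxia (log2 1.00 ± 0.23, adjusted p = 0.0032). In both, hypoxia replicate 1 was the extreme library and the groups did not overlap. Of the 17 mesenchymal genes 2 were higher and 3 lower, and of 26 epithelial and classical pancreatic cancer genes 4 were higher and 2 lower, where 10.4% of all genes were higher and 11.8% lower. With the 18 regular-medium libraries alone the counts were 6 and 4, and 8 and 2. Without hypoxia replicate 1 these counts were 1 and 3, and 2 and 2; the mesenchymal rises were also 1 without hypoxia replicate 3 and normoxia replicates 1 or 3, and the epithelial counts 2 and 2 without normoxia replicate 2, 3 and 0 without hypoxia replicate 3, and 3 and 1 without hypoxia replicate 2 or normoxia replicate 3. CLDN4, a tight junction claudin, had 108, 56.2 and 73.3 CPM in hypoxia, against 38.7, 38.5 and 34.3 CPM in normoxia (log2 1.09 ± 0.18, adjusted p = 0.000151), where parental cells had a log2 change of 0.02 ± 0.17; the difference was 1.07 ± 0.25 (adjusted p = 0.00793). TGF-beta and BMP genes had 5 of 22 higher and 6 lower, beside 10.4% and 11.8% of all genes. The counts were 7 and 5 in DESeq2 and 10 and 6 with the 18 libraries. The 6 lower were 2 without hypoxia replicate 1 and 3 without normoxia replicate 2. The 5 higher were 2 without normoxia replicates 2 or 3 and 3 without hypoxia replicate 3. ID2, named among the largest rises, had 36.97, 36.2 and 38.5 CPM in hypoxia, against 12.9, 11.3 and 13.8 CPM in normoxia. Of 24 matrix genes 4 were higher and none lower, beside 10.4% and 11.8% of all genes. Those higher included COL7A1, the anchoring-fibril collagen, with 20.1, 28.3 and 21.1 CPM in hypoxia, against 13.5, 14.8 and 14.4 CPM in normoxia (log2 0.70 ± 0.12), and COL5A2 (log2 0.55 ± 0.11). The matrix count was 8, with 1 lower, in the 18-library fit and 2 without hypoxia replicate 3 or normoxia replicates 2 or 3.

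Of 21 ribosome biogenesis genes 11 were lower and none higher in clone A, beside 11.8% and 10.4% of all genes. Their median log2 was -0.38. Parental cells had 8 lower, beside 14.9% of all genes, and a median of -0.37. In clone A 7 were lower without hypoxia replicate 1. RRP12, an export factor of ribosomal subunits, had 41.6, 71.4 and 61.2 CPM in hypoxia, against 136, 121 and 113 CPM in normoxia (log2 -1.09 ± 0.19, adjusted p = 0.000304), and RRP9, part of the U3 particle, had 13.01, 20.2 and 17.6 CPM in hypoxia, against 34.5, 34.3 and 29.6 CPM in normoxia (log2 -0.95 ± 0.19). POLR1B, a subunit of RNA polymerase I, had 60.8, 81.7 and 67.99 CPM in hypoxia, against 112, 116 and 109 CPM in normoxia (log2 -0.68 ± 0.12). Hypoxia replicate 1 was the lowest library for all 3. FBL and NCL, the abundant nucleolar proteins, did not pass (log2 -0.16 ± 0.15 and -0.14 ± 0.09). None of 43 cytosolic ribosomal protein genes was called, with a median of -0.03 (RPS16 0.00 ± 0.18 and RPLP0 -0.05 ± 0.16). None of 13 mitochondrial DNA-encoded transcripts was called either (1 lower without hypoxia replicate 1 or normoxia replicate 1), where replicate 1 went against its group: MT-CO1 had 7280.4, 5721 and 5228 CPM in hypoxia, against 4279, 7808 and 7459 CPM in normoxia. Of 39 nuclear respiratory chain genes 3 were lower, a smaller share than the 11.8% of all genes, with 8 lower and 2 higher in the 18-library fit. The count was 1 without hypoxia replicates 1 or 2 or any 1 of the normoxic libraries, and 2 without hypoxia replicate 3.

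The remaining lists, of lysosome, histone and AHR genes, stand beside 10.4% of all genes higher and 11.8% lower. Of 25 lysosome and autophagy genes 4 were higher and 1 lower, with 9 and 2 in the 18-library fit, 2 higher without hypoxia replicate 1 or normoxia replicates 2 or 3 and 2 lower without hypoxia replicate 1; NPC2, a cholesterol exporter of the lysosome, had 66.4, 41.5 and 48.3 CPM in hypoxia, against 34.99, 32.5 and 33.9 CPM in normoxia (log2 0.62 ± 0.14), and the autophagy receptor SQSTM1 fell, with 218, 233 and 229.8 CPM in hypoxia, against 387, 371 and 361 CPM in normoxia (log2 -0.72 ± 0.15, adjusted p = 0.0014). Histone genes had 3 of 13 higher and 1 lower (1 and 4 with only the 6 clone A libraries fitted), none in either direction without hypoxia replicate 1, 1 and 0 without normoxia replicate 1 and 1 and 1 without normoxia replicate 3; H2AC6, a histone H2A gene, had 70.1, 24.9 and 23.8 CPM in hypoxia, against 22.2, 22.7 and 20.7 CPM in normoxia, and lost its call without hypoxia replicate 1 (adjusted p = 0.477) or normoxia replicate 3 (adjusted p = 0.0514). Of 9 AHR targets, which also need ARNT, 3 were higher and 2 lower, TNFAIP2 among them with 31.3, 39.1 and 38.5 CPM in hypoxia, against 72.9, 63.5 and 64.7 CPM in normoxia (log2 -0.88 ± 0.17). Those counts were 2 and 3 with only the 6 clone A libraries fitted, 1 and 1 without hypoxia replicate 3, 4 and 1 without normoxia replicate 2, and 2 to 3 and 1 to 2 without another.

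**Figure D5:**
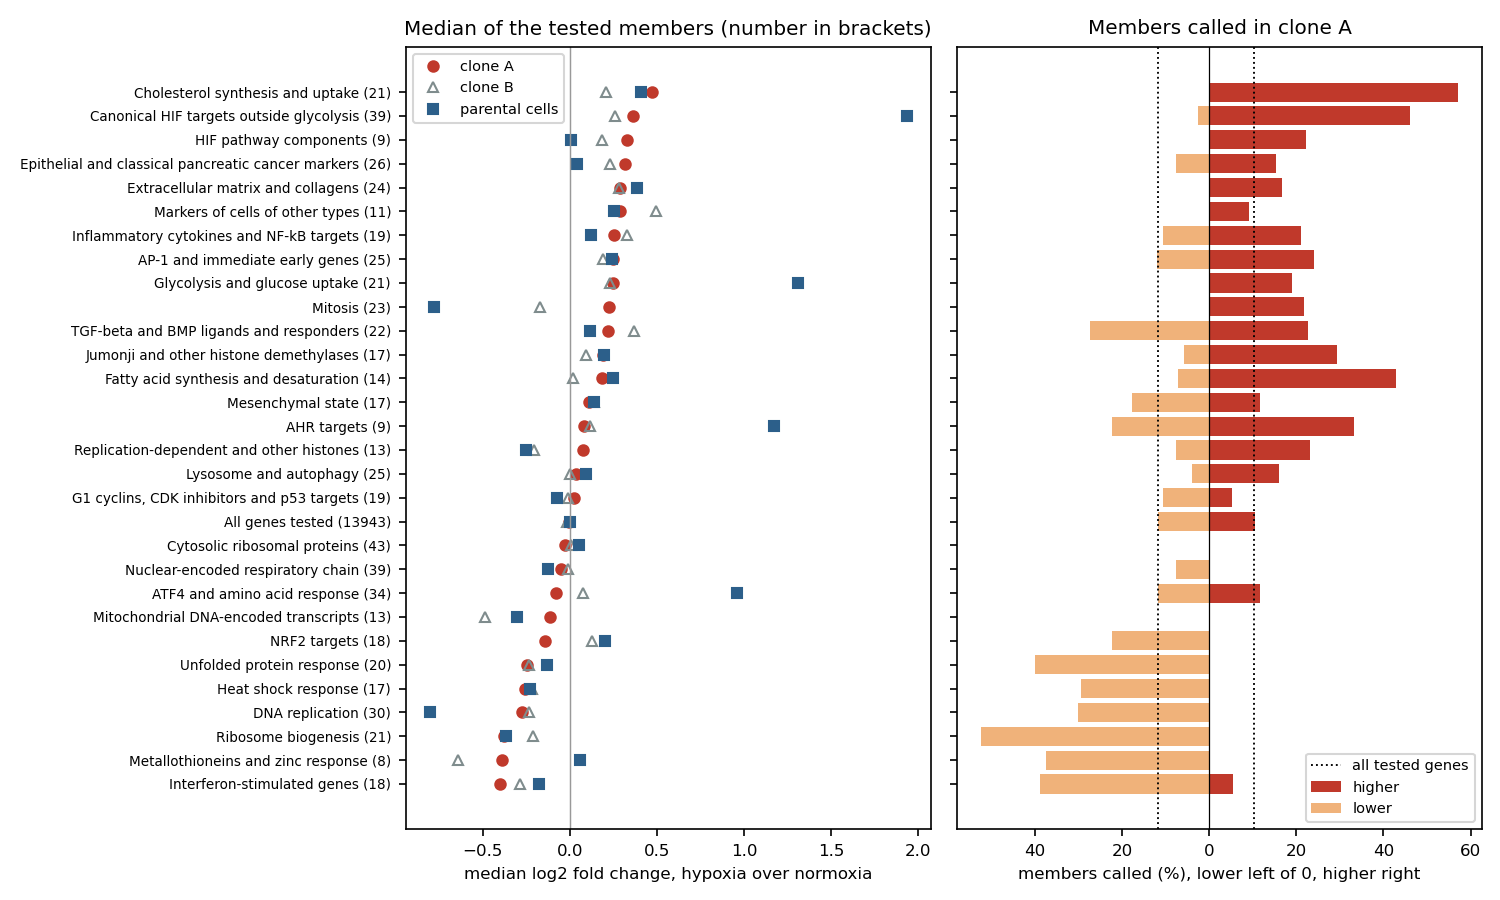
For each gene list, the median log2 hypoxia response in clone A, clone B and parental cells, and the percentage of tested members called higher and lower in clone A, with dotted lines at the percentages over all genes tested. HIF targets, glycolysis, cholesterol synthesis and mitosis have medians above 0 in clone A, replication, ribosome biogenesis and the unfolded protein response below 0.

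Clone B, the other knockout clone, mostly changed in the same direction as clone A, with fewer calls. It had 1297 called genes, 622 higher and 675 lower (9.3% of those tested, 4.46% higher and 4.84% lower), and 695 higher and 560 lower under RLE factors. Without clone B hypoxia replicates 2 or 3 the count was 817 or 527, and without its normoxia replicates 1, 2 or 3 it was 551, 580 or 627. Of the genes called higher in clone A, 413 were called higher in clone B, which is 28.4% of the clone A calls and 66.4% of the clone B calls, and 1390 of 1453 had a positive log2 in clone B. Of those called lower, 508 were called lower in clone B, 30.9% of the clone A calls and 75.3% of the clone B calls, and 1568 of 1644 had a negative log2. The sign was also shared with parental cells for most, 1305 of the 1453 called higher and 1416 of the 1644 called lower. No gene was higher in clone A and lower in clone B, and 2 were lower in clone A and higher in clone B. These were CCN2, a matricellular growth factor (log2 -0.61 ± 0.19 for clone A, 0.76 ± 0.19 for clone B), and CTPS1, the enzyme that makes CTP (log2 -0.41 ± 0.11 for clone A, 0.37 ± 0.11 for clone B), singled out after their values were seen. In clone A the call of CCN2 was lost without any library but hypoxia replicate 2, and that of CTPS1 without hypoxia replicate 1 (adjusted p = 0.0941 and 0.0649 without that library). In clone B both were lost without its hypoxia replicate 1 (adjusted p = 0.133 for CCN2 and 0.252 for CTPS1) or normoxia replicates 1 or 3, and CTPS1 also without normoxia replicate 2. The test of the difference between the clones called 0 genes with edgeR in the 27-library fit, although 870 had an unadjusted p under 0.05. It called 125 with edgeR in the 18 regular-medium libraries and 57 in only the 12 libraries compared, and DESeq2 called 36 in the 27, with 997 under an unadjusted p of 0.05. That does not show that the clones act alike. Pearson's r between the log2 changes of clone A and clone B across 13943 genes was 0.604. It was 0.81 across the 7753 genes with at least 20 CPM in a clone A or parental group. KDM3A rose in clone A by 1.20 ± 0.12, with a rise of 1.12 ± 0.12 in clone B. KDM4B rose by 0.79 ± 0.12, whereas the clone B change was not called (log2 0.15 ± 0.12, adjusted p = 0.499). The rises of RAB17 and GALM in clone A, 3.81 ± 0.74 and 2.08 ± 0.40, stood beside log2 values of 1.82 ± 0.62 and 0.81 ± 0.38 in clone B, neither called there.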

How the data were processed

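The table deposited by the authors holds raw read counts per gene in 27 libraries, made per the submitters' processing notes with HISAT2, featureCounts and GRCh38; no source used here names their versions, the strand setting or the library kit. Library totals ran between 26057022 and 38341713 counts. All 27 libraries, grouped by their labels, entered 1 fit of 9 groups with edgeR 4.0.16 in R 4.3.3: filterByExpr (minimum count 10, minimum total 15), TMM factors, robust quasi-likelihood F tests, Benjamini-Hochberg adjustment and calls under 0.05. Differences of responses were interaction contrasts of that fit. Levels are TMM-scaled CPM, and ± after a log2 fold change is the standard error from edgeR. Symbols matched 21432 of 21487 identifiers; coordinates and exon overlap came from GENCODE on GRCh38, and RefSeq promoters were matched by symbol, the first listed being used. The procedure was tested on simulated data.

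Named genes were the 12 largest called rises and falls with a mean of at least 20 CPM and no overlap between groups, the 8 smallest adjusted p in each direction, up to 4 called and 2 of the most abundant members of each list, the 8 largest called differences from parental cells in each direction, and a few fixed genes; a few genes under this rule are not reported here. Members and lists were chosen with earlier results of these data known. Alternatives were RLE factors, DESeq2 1.42.0, no filter, fewer libraries in the fit, a replicate block, 1 library left out and a 2-fold minimum.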

Additional observations from a re-analysis of the deposited data

Results flagged for a closer look

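Responses to hypoxia that differed between clone A and parental cells, by the interaction test of the edgeR fit, were called for 869 genes. The genes below are drawn from the fixed ones and those named for the largest called differences. Other named genes, such as CCNE1 and CLDN4, also had called differences and are not repeated. The response was lower in clone A, as log2 clone A minus parental, for PDGFB (-2.74), SERPINB9 (-2.68), SLC2A1 (-2.47), CADM1 (-2.45), NDRG1 (-2.44), PPFIA4 (-2.43), PFKFB4 (-2.42), STC2 (-2.29), VEGFA (-2.20), PDK1 (-2.14), EPAS1 (-1.10), KDM3A (-0.68) and KDM4B (-0.65). It was higher in clone A for TM4SF18 (1.56), CENPE (1.55), FBXO43 (1.42), PLEKHH2 (1.35), HIF1A (1.33), KIF18A (1.32), SOX21 (1.26) and ECT2 (1.24). With 1 of the 12 libraries left out at a time, the difference for SOX21 failed to pass in 11 of the 12 fits and that for KDM4B in 5.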

How the results depend on the processing

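None of the genes named by the rule and called in clone A changed sign under the alternatives run. The balance of higher and lower calls turned in clone A under RLE factors (1565 and 1478) and DESeq2 (1802 and 1735), in clone B under RLE factors (695 and 560), and in the histone, AHR and TGF-beta lists under at least 1 setting. The counts of calls over all genes under RLE factors, DESeq2 and no filter stayed within 1.5 times except as given. With at least a 2-fold change required, the calls were 684 for hypoxia in clone A, 387 for clone A minus parental, 250 in clone B and 1134 in parental cells. Fits with smaller sets of libraries called more: with the 18 libraries in regular medium 5783 in clone A, 2952 for clone A minus parental, 125 for clone A minus clone B, 3925 in clone B and 6775 in parental cells, and with only the libraries compared 4860, 2656, 57, 4242 and 6804 in the same order; the cause was not tested. DESeq2 called 36 genes for clone A minus clone B. Leaving out 1 library gave 1916 to 2696 genes in clone A, 0 to 1 for clone A minus clone B and 527 to 874 in clone B, and leaving out both clone A libraries numbered 1 gave 1079 in clone A.

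With a replicate block the 27-library fit called 3002 genes in clone A, and with only the libraries compared 4689 in clone A, 3918 in clone B and 6605 in parental cells. Same-numbered libraries of clone A did not deviate together (r of 0.0141, -0.011 and 0.0175), and not every library correlated best with its own number, so the numbers were not used as pairs. Of the checks on single named genes in clone A, 2360 kept their call status, 221 lost a call and 31 gained one. Replicates of 3 limit the precision of every value.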
